A study of Saccharomyces cerevisiae with 5 samples.

Results

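The genes described here are the aerobic and hypoxic forms of 5 proteins that budding yeast (Saccharomyces cerevisiae) encodes in pairs. They are CYC7 and CYC1 for cytochrome c, COX5B and COX5A for subunit 5 of cytochrome oxidase, ANB1 and HYP2 for the translation factor eIF5A, AAC3 and AAC2 for the mitochondrial ADP/ATP carrier, and HMG2 and HMG1 for HMG-CoA reductase. They were chosen by name, with earlier results of these data known, as were the lists of other genes set beside them. In the annotation of the array 9 of the 10 had a feature, 1 feature each, among 6235 genes and unnamed features in all. AAC2 stands in the annotation under its other name, PET9. HMG2 was not analysed here, so HMG1 is described without its partner.

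Each array compared 2 samples of a culture that had grown exponentially and was then held in syringes at 30 MPa and 25 °C for 16 h. The first sample, labelled with Cy5, was RNA of cells left to grow for 2 h at 0.1 MPa after the pressure was released (recovery), and the second, labelled with Cy3, was RNA of cells collected at release, 0 h (decompressed). The sources used here give no strain and no oxygen level, and both RNAs come from cells that had been under pressure, so no sample stands for cells that never were. The series holds 3 hybridizations, each of its own biological samples per the labels, and hybridizations 1 and 2 were scanned at high and low laser power, which makes 5 scans. Values are log2 ratios of the 2 dyes. The sources do not state which dye is the numerator, and recovery over decompressed is taken as the likely direction, because recovery is the first channel in the labels. With the opposite numerator each sign below would be turned round. The dyes lie the same way on each array, so an effect of the dye on a gene and its change cannot be told apart.

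In yeast these pairs divide the work by oxygen supply. With oxygen, haem is made, and it acts through the activator Hap1 and the Hap2/3/4/5 complex to raise the aerobic forms, while it also keeps up the repressor Rox1, which with Tup1 and Cyc8 holds the hypoxic forms down. When oxygen runs short, haem falls, Rox1 is lost and the hypoxic forms replace the aerobic ones. Cytochrome c carries electrons to cytochrome oxidase, whose subunit 5 affects how fast the enzyme turns over. eIF5A helps ribosomes through difficult peptide stretches, the ADP/ATP carrier exchanges nucleotides across the inner mitochondrial membrane, and HMG-CoA reductase is the control step of sterol synthesis.

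Between 2089 and 5007 of 6336 features carried a value in a scan, fewest in hybridization 3 (33.0%). Over genes, which are not independent replicates, the hybridizations correlated with Pearson r between 0.55 and 0.72. Shorter genes had higher log2 ratios in every hybridization (Spearman rho -0.48, -0.24 and -0.23 in hybridizations 1, 2 and 3, over 4151, 4738 and 1988 genes), and ratios also differed between stretches of the feature list. Both bear on these genes, most of which are short, and their values are given beside the results they touch. A gene was tested by limma where it had a value in all 3 hybridizations, which left 4 of the 9 (CYC7, COX5B, ANB1 and HYP2); a wider limma fit took genes with at least 2 hybridizations and held all 9.

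CYC7 was the one isoform gene that rose in recovery among the 4 with values in all hybridizations, and none fell. Of all 1891 genes and unnamed features tested in the same way, 27.2% were called at a limma adjusted p under 0.05, 15.1% higher and 12.2% lower, so 1 call among 4 genes is not far from the share among all genes. The 4 means were all above 0, with a median log2 ratio of 0.23, against 0.09 for all tested. In the wider fit 2 of the 9 were called higher, CYC7 and AAC2, and none lower, where 24.5% of 4368 were called, 11.9% higher and 12.7% lower. All 9 means were above 0 there, with a median of 0.25, against -0.0068 for all tested. With the length trend removed COX5B (-0.044), ANB1 (-0.14) and HYP2 (-0.17) were below 0 in both fits. AAC3 was at -0.0031 in the wider fit, and the other members stayed above 0, CYC1 at 0.010. Subtracting a running median along the feature list (the position correction) raised the calls over all 1891 from 515 to 674. Of these 357 were higher and 317 lower, which bears on each call gained with that correction below.

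CYC7, the minor cytochrome c that gains weight when oxygen is scarce, had log2 ratios of 1.51 in hybridization 1, 1.31 in hybridization 2 and 1.54 in hybridization 3. Its 3 values lay close together and high in every array: 98.1%, 97.4% and 97.3% of the genes measured in each hybridization were below it, and the same shares would be above it if the ratio ran the other way. The mean was 1.45 ± 0.13 (SD, n = 3), a 2.74-fold higher level in recovery than at decompression (limma adjusted p = 0.000843). The scans also lay close, at 1.53 and 1.50 in hybridization 1. In hybridization 2 the high power scan alone gave a value. CYC7 was called in each of the 14 alternative fits that could test it, with means from 0.99 to 1.52, the lowest with the trend on gene length removed (the gene is 342 bases long).

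CYC1, the main cytochrome c of respiring cells, did not repeat between arrays. Its log2 ratio was 1.17 in hybridization 1, from scans of 1.33 and 1.01, and -0.08 in hybridization 2, from scans of -0.13 and -0.02, and hybridization 3 gave none. It was thus among the higher genes of the first array (above 94.9% of those measured) and near the middle of the second (above 45.5%). The mean of 0.55 ± 0.88 (SD, n = 2) did not pass in the wider fit (limma adjusted p = 0.213). Corrections moved it in opposite directions: CYC1, 330 bases long, was at 0.010 with the length trend removed (adjusted p = 0.988) and at 0.80 with the position trend removed, without a call in either case.

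**Figure D1:**
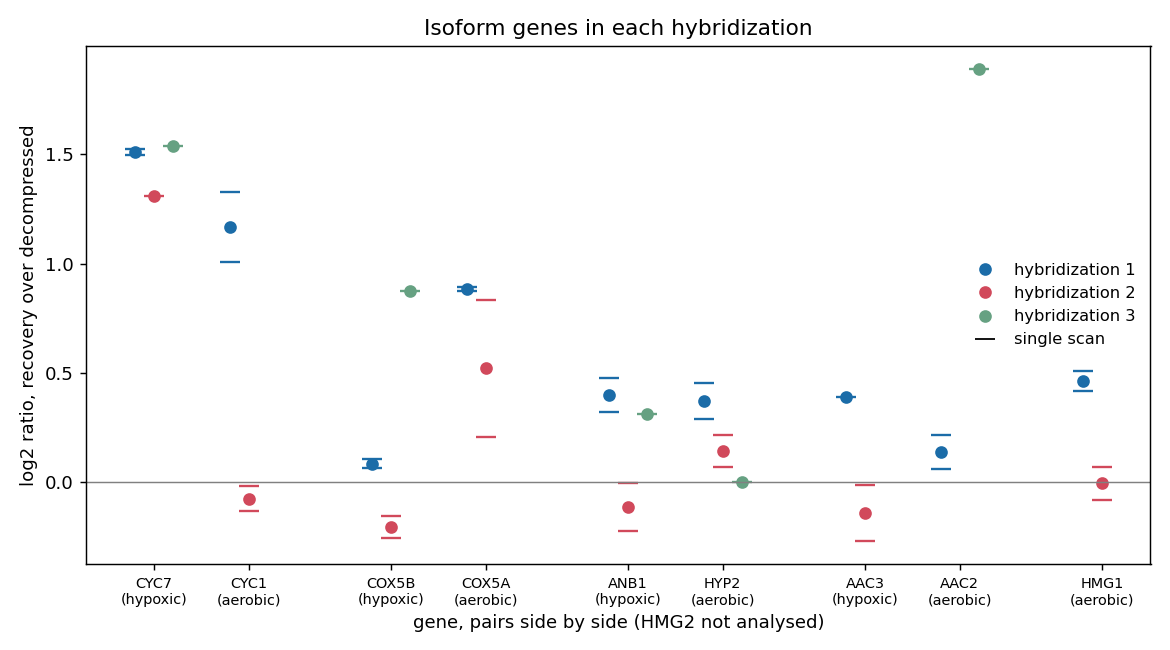
Log2 ratios (recovery over decompressed) of the 9 isoform genes, hypoxic form left of its aerobic partner; circles are hybridizations and dashes single scans. CYC7 sits between 1.31 and 1.54 in all 3 hybridizations, while CYC1 is at 1.17 in one and -0.08 in the other, and AAC2 at 0.14 and 1.89.

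Set side by side within an array, CYC7 exceeded CYC1 by 0.34 on the log2 scale in hybridization 1 and by 1.38 in hybridization 2. In hybridization 2 CYC7 had the high power scan alone, and within that scan the difference was 1.44. The mean difference was 0.86 ± 0.73 (SD, n = 2), from means of 1.41 for CYC7 and 0.55 for CYC1 in those arrays. Both differences had the same sign, but an exact sign-flip permutation test (two-sided) over 2 arrays gives p = 0.5, the smallest it can give, and cannot reach the threshold. CYC7 was higher by 0.20 in hybridization 1 than in hybridization 2, and CYC1 by 1.24. The proteins are closely alike, and how far the features on this array separate such paralogs was not tested.

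Of the genes that serve cytochrome c, 4 were tested in 3 hybridizations and 1 rose with none lower, near the 27.2% called of all tested. That was RIP1, the Rieske iron-sulphur protein of the bc1 complex, at 0.89 ± 0.39 (limma adjusted p = 0.0179). RIP1 missed the threshold after the length trend was removed (0.64, adjusted p = 0.0749), and when array 1 or 3 was left out (adjusted p = 0.0652 and 0.0762). CYT1, which is cytochrome c1 and hands electrons to cytochrome c, was at 0.018 ± 0.58, CYT2, the haem lyase for cytochrome c1, at 0.030 ± 0.47, and MIA40 of the intermembrane space import route at -0.63 ± 0.20, without a call. MIA40 was called lower with high power scans, after median centring and with array weights (limma adjusted p = 0.0446, 0.0357 and 0.042). In the wider fit ERV1, the sulphydryl oxidase that passes electrons to cytochrome c, was called higher beside RIP1. Its values were 1.21 and 1.69 in hybridizations 1 and 3 (limma adjusted p = 0.000109).

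For subunit 5 of cytochrome oxidase the aerobic form was the higher of the pair in the deposited values, the opposite order to cytochrome c. COX5A, the aerobic form, had log2 ratios of 0.88 in hybridization 1 and 0.52 in hybridization 2, and no value in hybridization 3. Both were above 0, but the scans of hybridization 2 stood apart, at 0.83 with high and 0.21 with low laser power. The mean was 0.70 ± 0.26 (SD, n = 2), and the wider fit did not call it (limma adjusted p = 0.0921). Without the length trend it was at 0.28.

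COX5B, the hypoxic form, had log2 ratios of 0.09, -0.20 and 0.87 in hybridizations 1, 2 and 3. One array was above the other two, and the mean of 0.25 ± 0.56 (SD, n = 3) was not called (limma adjusted p = 0.521). That array's value was close to that of its surroundings: the median of the features next to COX5B in the list was 0.88 in hybridization 3, and -0.46 and -0.62 in hybridizations 1 and 2. Without hybridization 3 the mean was -0.06, and after removal of the length trend -0.04.

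Within the arrays that held both, COX5B minus COX5A was -0.80 in hybridization 1 and -0.72 in hybridization 2. Its scans lay close in hybridization 1, at -0.77 with high and -0.82 with low laser power. In hybridization 2 they stood apart, at -1.09 and -0.36. The mean difference over the 2 arrays was -0.76 ± 0.05 (SD, n = 2), from -0.06 for COX5B and 0.70 for COX5A. That SD leaves out the gap between scans. The exact sign-flip permutation test (two-sided) gives p = 0.5, the smallest possible with 2 arrays. The mean difference shrank to -0.12 once a running median along the feature list was subtracted, with -0.09 and -0.15 in the hybridizations. The features around COX5A had medians of 0.25 and -0.04 in the same arrays, above those around COX5B. The part that position on the array plays in this pair was not tested beyond that.

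**Figure D2:**
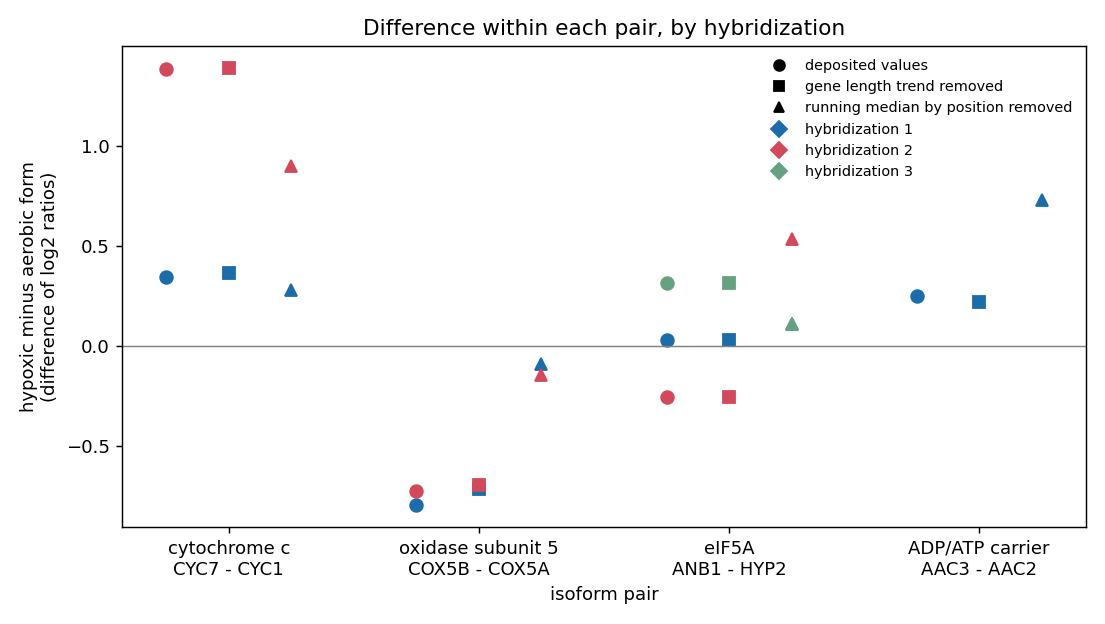
Difference of log2 ratios, hypoxic minus aerobic form, in each pair and hybridization (colour), from the deposited values, after removal of the gene length trend and after removal of a running median along the feature list (symbol). CYC7 minus CYC1 stays above 0 at every point, whereas COX5B minus COX5A moves from about -0.76 to about -0.12 with the position correction.

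The other subunits of cytochrome oxidase, which have 1 gene each in the list used here, were mostly higher in recovery: limma called 4 of 5 higher and none lower, where 15.1% of all tested were called higher. Their median log2 ratio was 0.84, against 0.09 for all tested. COX8 was at 1.48 ± 0.91, COX12 at 0.86 ± 0.31, COX4 at 0.84 ± 0.26 and COX9 at 0.79 ± 0.14, with limma adjusted p from 0.0035 to 0.0241; COX6, at 0.09 ± 0.21, was not called. COX13 had values of 1.18 and 1.33 in 2 hybridizations and was called in the wider fit (limma adjusted p = 0.00104). In the deposited values of hybridizations 1 and 2 the median of these subunits was 0.99 and 0.75. COX5A (0.88 and 0.52) was inside their range there, and COX5B (0.09 and -0.20) below the lowest of them (0.24 and 0.18). In hybridization 3, where the subunits ran from -0.15 to 1.90, COX5B at 0.87 was inside their range. With the position trend removed COX5B was at 0.54, 0.41 and -0.00091 in hybridizations 1, 2 and 3, a mean of 0.32. COX6, the lowest subunit in the deposited values of hybridizations 1 and 2, then had a mean of 0.089 over the 3 hybridizations. The place of COX5B below the subunits was not tested with that correction. These are short genes: with the length trend removed 1 of 5 remained called, COX8. Without hybridization 1, 2 or 3 the number called was 2, 1 and 2; COX8 itself missed the threshold without hybridization 3 (adjusted p = 0.0529). COX13 was not called with the length trend removed (0.79, adjusted p = 0.0565).

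The eIF5A genes hardly differed from 0 or from each other. ANB1, the hypoxic form, had log2 ratios of 0.40, -0.11 and 0.31 in hybridizations 1, 2 and 3, a mean of 0.20 ± 0.27 (SD, n = 3; limma adjusted p = 0.584). HYP2, the aerobic form, had 0.37, 0.14 and 0.0021, a mean of 0.17 ± 0.19 (SD, n = 3; limma adjusted p = 0.641). The values of the 2 genes overlapped.

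ANB1 minus HYP2 was 0.03, -0.26 and 0.31 in the 3 hybridizations. The sign changed between arrays, and the mean difference was 0.03 ± 0.28 (SD, n = 3; exact sign-flip permutation test, two-sided, p = 0.75, where 3 arrays can give no less than 0.25). The genes have the same length of 474 bases, so the length trend leaves the difference as it is, while both means turn below 0 (-0.14 and -0.17). Position moves ANB1 the other way: its neighbours in the list had medians of -0.13, -0.84 and -0.23, and after their subtraction ANB1 was at 0.60 and was called (limma adjusted p = 0.0249), with HYP2 at 0.35 without a call. The neighbours of HYP2 in hybridization 3 were few, 10 features with a value. The genes are near-identical copies, and an array need not tell their transcripts apart.

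The enzymes that make eIF5A active by building its hypusine residue gave 1 call in 2, too few to set against the share of all genes. LIA1, the hydroxylase of the second step, rose by 1.00 ± 0.11 (SD, n = 3; limma adjusted p = 0.0072), with 1.06, 0.88 and 1.06 in the hybridizations, and missed the threshold without hybridization 1 (0.97, adjusted p = 0.0627). DYS1, the synthase of the first step, had 0.0050, 0.08 and 1.17 and was not called (adjusted p = 0.278). The genes of its substrate gave no call in the same fit, but a difference between LIA1 and those genes was not tested.

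The ADP/ATP carrier pair could be set side by side in 1 array. AAC3, the hypoxic form, had log2 ratios of 0.39 in hybridization 1 and -0.14 in hybridization 2, which lie on both sides of 0, and a mean of 0.13 ± 0.37 (SD, n = 2; limma adjusted p = 0.818 in the wider fit). AAC2, the main carrier in cells that respire, had 0.14 in hybridization 1 and 1.89 in hybridization 3. It lay above 59.5% of genes in the first of these arrays and above 99.0% in the other.

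The mean of AAC2, 1.01 ± 1.24 (SD, n = 2), was called by the wider fit (limma adjusted p = 0.00992), although its 2 values were far apart. In that fit each gene with 2 values had a standard error of 0.319 whatever its own spread, since the variance was shared fully among genes, so this call rests on the mean alone. Hybridization 3 decides it: without that array AAC2 stood at 0.14. Its neighbours in the list had medians of 0.40 in hybridization 1 and 0.81 in hybridization 3, and with those subtracted the values were -0.26 and 1.08, the mean was 0.41 and the call was lost (adjusted p = 0.378). It was also lost with the length trend removed (0.95, adjusted p = 0.0787). In hybridization 1, AAC3 exceeded AAC2 by 0.25, but AAC3 had the high power scan alone and AAC2 the mean of both scans. Within the high power scan the difference was 0.17. A single array gives no test.

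The third ADP/ATP carrier gene, AAC1, had a value in hybridization 2 alone, 1.16. Of 8 other carriers of the mitochondrial inner membrane tested in 3 hybridizations, none rose and 1 fell, near the 12.2% called lower of all tested, with a median of 0.11, against 0.09. OAC1, the oxaloacetate carrier, was at -0.84 ± 0.74 (limma adjusted p = 0.0405) and lost the call when array 2 or 3 was left out (adjusted p = 0.126 and 0.23). MIR1, the phosphate carrier that works beside the ADP/ATP carrier, was at 0.36 ± 0.064 without a call. With the position trend removed MIR1 was at 0.58 and was called higher (limma adjusted p = 0.0291). YMC2 was at 0.28 ± 0.38 and PIC2, a second phosphate carrier, at -0.23 ± 0.18, also without a call. The wider fit also called ODC1, which carries oxodicarboxylates, at 0.90 ± 0.53 (SD, n = 2; limma adjusted p = 0.025); its call ended with the length or the position trend removed (adjusted p = 0.0693 and 0.0501).

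HMG1, which encodes most HMG-CoA reductase of aerobic cells, had log2 ratios of 0.46 in hybridization 1 and -0.0045 in hybridization 2. The mean was 0.23 ± 0.33 (SD, n = 2) and was not called (limma adjusted p = 0.659 in the wider fit). HMG1 is the longest gene of the set, 3165 bases, and unlike the short ones it moved up, to 0.57, when the length trend was removed (adjusted p = 0.166). Of 7 other genes of early sterol synthesis tested in 3 hybridizations, 1 fell and none rose, near the 12.2% of all tested that were called lower. Their median log2 ratio was -0.29, against 0.09 for all tested. The listed factors around the reductase were not among the 7. Of them NSG1, NSG2 and HRD1 had 2 values and were not called in the wider fit (limma adjusted p = 0.826, 0.358 and 0.789). ERG9, squalene synthase, was at -0.86 ± 0.25 (limma adjusted p = 0.0175) and missed the threshold when array 1 or 2 was left out (adjusted p = 0.0606 and 0.121). ERG20, ERG10 and ERG1 were at -0.63 ± 0.39, -0.60 ± 0.21 and -0.29 ± 0.45 without a call, and were called lower after the position correction. In the wider fit MVD1, mevalonate pyrophosphate decarboxylase, was called lower from values of -0.39 and -1.36 (limma adjusted p = 0.0303), and its call ended with either trend removed (adjusted p = 0.0723 for length and 0.0565 for position).

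**Figure D3:**
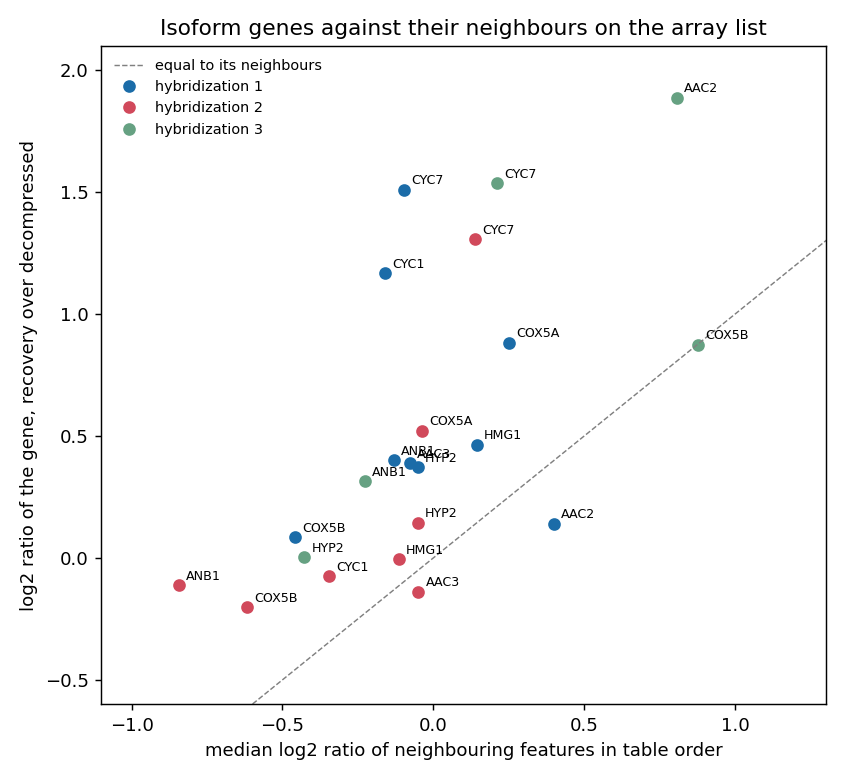
Log2 ratio of each isoform gene in each hybridization (vertical) against the median log2 ratio of the features within 50 places in the list (horizontal). Points on the dashed line equal that median, which includes the gene's own feature. COX5B in hybridization 3 lies on the line at 0.87, ANB1 in hybridization 2 has the lowest neighbours (-0.84), and CYC7 is far above its neighbours in all 3 hybridizations.

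The listed regulators of oxygen, haem and sterol genes, not only those of these pairs, were mostly measured in 2 arrays, so their calls come from the wider fit. Of 16 listed, 12 could be tested there, and 6 were called higher and 1 lower, where 11.9% and 12.7% of all genes in that fit were. The median log2 ratio was 0.67, against -0.0068 for all tested. The 6 included ECM22 and SUT2, and the 1 lower was MGA2, all given below among regulators of sterol and fatty acid genes. ROX1, the repressor of hypoxic genes, had 1.54 and 1.53 in hybridizations 1 and 2 (limma adjusted p = 3.38e-05). TUP1, its co-repressor, had 0.84 and 1.29 (adjusted p = 0.0065), while CYC8, the partner of Tup1, had 0.22 and -0.47 in hybridizations 2 and 3 and was not called.

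HAP4, the activating subunit of the complex that raises respiratory genes, was higher in each array, with 0.72, 1.24 and 1.76 in hybridizations 1, 2 and 3. It had a mean of 1.24 ± 0.52 (SD, n = 3; limma adjusted p = 0.00383 in the fit of genes with 3 values). HAP2, a DNA-binding subunit of that complex, had 0.62 and 1.19 and was called in the wider fit (adjusted p = 0.0236), and its call ended with the length trend (adjusted p = 0.0943) or the position trend (adjusted p = 0.0529) removed. HAP3 was at 0.44 ± 0.016 without a call, HAP1 at -0.21 ± 0.28 and IXR1, a regulator of COX5B and other hypoxic genes, at 0.31 ± 0.13. With the position trend removed HAP3 was called higher in the wider fit (0.73, limma adjusted p = 0.0377). HAP5 had no value.

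Among regulators of sterol and fatty acid genes, ECM22, an activator of sterol synthesis genes, had 1.26 and 1.20, and SUT2, a relative of the sterol uptake regulator SUT1, had 1.28 and 1.26 (limma adjusted p = 0.00131 and 0.000899 in the wider fit). MGA2, an activator of the desaturase gene OLE1 and of hypoxic genes, fell, with -1.14, -0.40 and -1.06 and a mean of -0.87 ± 0.41 (SD, n = 3; limma adjusted p = 0.0203). MGA2 missed the threshold with the length trend removed (-0.52, adjusted p = 0.118), and when array 1 or 3 was left out (adjusted p = 0.178 and 0.0762). SPT23, its paralog, was at 0.30 ± 0.32 without a call. MOT3, UPC2 and SUT1 had a value in hybridization 2 alone, -0.11, -0.37 and -0.02.

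Genes of haem synthesis, listed together with HMX1 of haem breakdown, gave no common direction. In 3 hybridizations 2 were tested, HEM2 at 0.29 ± 0.09 and HEM3 at 0.039 ± 0.59; limma called 0 of them and 0 had an unadjusted p under 0.05. In the wider fit 1 of 7 rose, near the 11.9% called higher of all genes in that fit. That was HEM13, coproporphyrinogen oxidase, a gene known for its repression by Rox1 in aerobic cells, with 1.68 and 1.36 in hybridizations 1 and 3 (limma adjusted p = 4.2e-05). HEM13 and ROX1 were thus both higher in recovery. They stood at 1.48 and 1.54 with the length trend removed. With the position trend removed they were at 0.99 and 1.26, still called in the wider fit (limma adjusted p = 0.0387 and 0.00756). In the wider fit of the deposited values, genes with 2 values share a standard error of 0.319, so their small p-values do not reflect their own spread.

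Other genes known to be raised without oxygen fell where they changed among those with 3 values. They were listed from background knowledge, but with earlier results of these data known. Of 7 tested 4 fell and none rose, where 12.2% of all tested were called lower and 15.1% higher. The median log2 ratio was -0.70, against 0.09 for all tested. OYE2, an NADPH oxidoreductase, was at -1.18 ± 0.33 and OLE1, the fatty acid desaturase, at -1.17 ± 0.21 (limma adjusted p = 0.00359 and 0.00327). ERG26 of late sterol synthesis was at -0.99 ± 0.74 and EUG1, a disulphide isomerase of the endoplasmic reticulum, at -0.70 ± 0.27 (adjusted p = 0.0201 and 0.043). The count without hybridization 1, 2 or 3 was 2, 3 and 2. OYE2 missed the threshold without hybridization 1 (adjusted p = 0.0513), ERG26 without hybridization 3 (adjusted p = 0.114) and EUG1 without any 1 of them (adjusted p from 0.108 to 0.152) or the length trend (adjusted p = 0.0975). In the wider fit, of 19 tested 6 fell and 2 rose (12.7% and 11.9% of all genes in that fit): the cell wall mannoprotein genes DAN1, at -1.41 ± 0.10, and PAU24 (also known as DAN3), at -0.86 ± 0.56, were lower, while TIR2, at 1.24 ± 0.45, and TIR1, at 0.99 ± 0.10, were higher. PAU24 lost its call with the position trend removed (adjusted p = 0.101) and TIR1 with the length trend removed (adjusted p = 0.0605). The hypoxic genes outside the pairs therefore held members called in each direction.

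Of 11 genes known to need haem or oxygen, 3 rose and none fell, where 27.2% of all tested were called, 15.1% higher and 12.2% lower. The number called is thus near that background. The median log2 ratio was 0.45, against 0.09 for all tested. RIP1, described above, COR1, a core subunit of the bc1 complex, at 0.86 ± 0.13 (limma adjusted p = 0.016), and SDH2 of succinate dehydrogenase, at 0.85 ± 0.23 (adjusted p = 0.0178), were called. SOD2, mitochondrial superoxide dismutase, at 0.67 ± 0.40, was not called (adjusted p = 0.0609), though it was after the position correction (adjusted p = 0.0161), with array weights (adjusted p = 0.0492) and in the wider fit (adjusted p = 0.0442). None of the 3 calls was made without hybridization 1, and 1 without hybridization 2. In the wider fit 5 of 15 rose and none fell (11.9% and 12.7% of all genes there): RIP1, COR1, SDH2, SOD2 and YHB1, the flavohaemoglobin, with 0.91 and 1.27 (adjusted p = 0.00524).

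**Figure D4:**
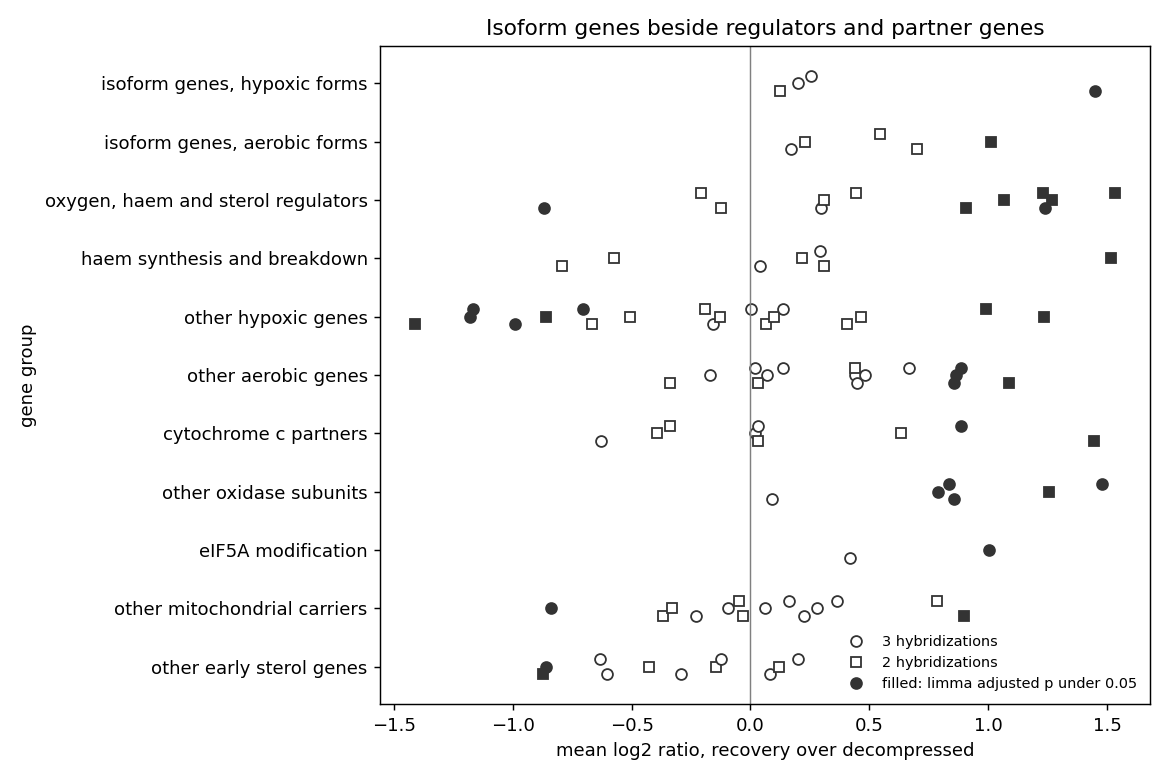
Mean log2 ratio (recovery over decompressed) of each isoform gene and of the genes in each list; circles had 3 hybridizations and squares 2, and filled symbols had a limma adjusted p under 0.05. CYC7 is the filled symbol among the hypoxic forms at 1.45 and AAC2 the one among the aerobic forms at 1.01, and filled symbols lie to the right for the regulators except MGA2 at -0.87.

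In the order of their mean log2 ratios the isoform genes ran from CYC7 (1.45) over AAC2 (1.01), COX5A (0.70), CYC1 (0.55), COX5B (0.25), HMG1 (0.23), ANB1 (0.20) and HYP2 (0.17) to AAC3 (0.13). These are changes and not levels, the means come from different arrays, and the opposite numerator would reverse the order. AAC2 was measured in hybridizations 1 and 3, and with hybridization 3 left out it stood at 0.14 and COX5B at -0.058, so neither would keep its place. From AAC2 down, the values of each gene overlap in range with those of the next. The values of CYC7, 1.31 to 1.54, lie inside the range of AAC2 (0.14 to 1.89) and above each value of the other 7 genes. In chromosome order (RefSeq assembly R64) CYC1 and ANB1 are direct neighbours, and CYC7 and HYP2 lie on another chromosome with 4 genes between them. CYC1 was at 1.17 and ANB1 at 0.40 in hybridization 1, and they were close in hybridization 2, at -0.08 and -0.11. CYC7 stood above HYP2 in all 3 hybridizations.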

How the data were processed

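The authors deposited a log2 ratio of the dyes for each feature in each scan, and normalized it by LOWESS over spots flagged 0, per the labels. Scanner, software and array build are not given in the sources used here. The log base was read from the lowest value, log2 of 0.01; column medians ran from -0.01 to 0.006. Of 6336 features 5297 had 1 gene symbol and 1039 none; 5293 matched RefSeq R64 by Entrez identifier. Features of a gene, then scans of a hybridization, were averaged.

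Means were tested against 0 with limma 3.58.1 (R 4.3.3; lmFit, eBayes), adjusted by Benjamini-Hochberg over 1891 genes or unnamed features with 3 hybridizations, or 4368 with at least 2. The number of arrays limits the precision. Pair differences were taken within arrays. Length correction used loess (span 0.5) on RefSeq gene length, introns included. Position correction subtracted the median of the feature itself and 50 features on each side in table order, a stand-in for the array layout. The limma fit of genes with 3 hybridizations was tested on simulated data with independent normal noise. Those data held no length or position trend, so they cannot show how the fit behaves under the trends seen here. The wider fit, the sign-flip test and the length and position corrections were not. Protein and promoter sequences were not used here.

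Members and lists were chosen with earlier results of these data known. Named genes were the members, list members called in either fit or with the smallest p up to 4 a list, and all regulators, oxidase subunits and hypusine enzymes.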

Additional observations from a re-analysis of the deposited data

How the results depend on the processing

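CYC7 kept its direction and its call in each of the 14 alternative fits that could test it; it could not be tested with the low power scans, where it had no value in hybridization 2, and the count of isoform genes called higher was then 0. That count was 2 of 9 with at least 2 hybridizations (AAC2 added), beside 518 of 4368 over all genes. After the position correction it was 2 of 4, and 2 of 9 in the wider fit (ANB1 added, at 0.60). Over all genes that correction called 357 of 1891 higher, against 285 without it, and 539 of 4368 in the wider fit. None of the 9 was called lower under any setting. The settings that combine at least 2 hybridizations with the length or the position correction were chosen after seeing the data.

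COX5B turned to -0.058 with hybridizations 1 and 2 alone, as it did without hybridization 3, and to -0.044 with the length trend removed, where ANB1 was at -0.14, HYP2 at -0.17, COX5A at 0.28, HMG1 at 0.57 and CYC1 at 0.010, with the same values in the fit of at least 2 hybridizations. AAC3 was at -0.27 with low power scans. Without hybridizations 1, 2 and 3 in turn COX5B ran from -0.058 to 0.48. The difference COX5B minus COX5A was -0.93 with high power scans, -0.59 with low power scans, -0.71 without the length trend and -0.12 without the position trend. AAC3 minus AAC2 was 0.17 with high power scans and with 5 scans in a random block, 0.22 without the length trend and 0.73 without the position trend. The cause was not tested in these cases.

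Over the context lists together, each gene once, 9 were called higher and 7 lower of 47, beside 15.1% and 12.2% of all tested. Over all genes 515 of 1891 were called, 240 without hybridization 1, 319 without 2 and 426 without 3. The number was 674 of 1891 without the position trend and 1072 of 4368 with at least 2 hybridizations. In the lists the higher count was 22 of 91 with at least 2 hybridizations, beside 518 of 4368 over all genes. It was 17 of 81 with hybridizations 1 and 2 alone (510 of 4213 over all genes), and 5 of 47 without the length trend (202 of 1832). With at least 2 hybridizations it was 14 of 91 without the length trend (363 of 4170) and 25 of 91 without the position trend (539 of 4368). In that last setting 11 of the 91 were lower (567 of 4368). With 1 hybridization left out the higher count of the lists ran from 3 to 6 of 47 and the lower count from 3 to 4. Over all 1891 genes these counts ran from 115 to 262 and from 125 to 164. Uncalled genes near 0 changed sign. CYT1 was at -0.0082 with high power scans, -0.080 after median centring, -0.17 with hybridizations 1 and 2 alone, -0.069 without the length trend, -0.074 without the position trend and -0.15 with array weights, and from -0.17 to 0.35 with 1 hybridization left out. HEM3 was at -0.022 with low power scans, -0.059 after centring and -0.0084 without the length trend, and from -0.29 to 0.28 with 1 left out. CYT2 was at -0.068 after centring and -0.20 without the length trend, and from -0.22 to 0.25 with 1 left out. COX6 was at -0.0073 and -0.27 under the same corrections. PIC2 was at 0.030 without the position trend. With at least 2 hybridizations HAP1 was at 0.22 and CYC8 at 0.12 without the length trend, and CYC8 at 0.11 without the position trend. Of 513 values of 50 context genes under the alternatives, 408 kept direction and side of the threshold. A feature needs a value in each scan used, and the 33.0% of hybridization 3 limits which genes could be tested.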
